A study of Saccharomyces cerevisiae with 6 samples.

Results

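The 2 libraries of Saccharomyces cerevisiae cells with wild-type RPB1 (strain CKY690) were taken from a series of 6 libraries, whose other 4 come from a fast and a slow elongation mutant of RPB1 and are not described. The members were chosen by their sample title alone. All strains of the series, CKY690 included, are MATa, lack the chromosomal RPB1 gene and carry RPB1, which encodes the largest subunit of RNA polymerase II, on a LEU2 CEN plasmid; they also lack UPF1 (upf1::HPH) and carry a TAP tag on RPB3. Cells were grown to log phase in YPDA, and rRNA-depleted total RNA of 2 independent cultures was sequenced as strand-specific 150-base read pairs. UPF1 and RPB1 hold no intron and are not in the tables used, so neither genotype could be checked here.

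Introns are removed by the spliceosome, which recognises the 5′ splice site (5′SS, GTATGT in most yeast introns), the branch site (TACTAAC) and the 3′ splice site (3′SS, usually YAG). Yeast has few introns, most genes that have one have only one, and the ribosomal protein (RP) genes are the largest and most highly expressed group among them. Upf1 is a core factor of nonsense-mediated decay, which destroys many transcripts that carry a premature stop codon, unspliced pre-mRNAs that reach the cytoplasm among them. In upf1Δ cells such pre-mRNAs persist.

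For each of 312 genes the read-class tables hold the reads of exon 1, of the exon 1-intron boundary (the 5′ boundary), of the intron, of the intron-exon 2 boundary (the 3′ boundary), of exon 2, of the exon 1-exon 2 junction, and of pairs that span the whole intron. Of these genes 260 are nuclear with an intron of at least 20 nt, 45 are frameshift genes whose annotated gap is 1 nt (mostly Ty gag-pol genes), and 3 are mitochondrial. The tables hold 10610833 reads in WT replicate 1 and 9666588 in WT replicate 2. Pre-mRNA reads are the boundary and intron reads, mRNA reads are the junction reads, and the pre-mRNA share is the percentage of pre-mRNA reads in their sum. A second table per library lists the split reads that STAR placed on each annotated intron.

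The splice sites of the introns at both ends of the ranking, and of the most abundant ones, are shown first. Each line gives the last 10 bases of exon 1 and the first 12 of the intron, with the 6 bases at the 5′SS in capitals. The 5 genes with the highest pre-mRNA share among those with a GT-AG intron in the split-read table were as follows.

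PCH2 (chrII:602104-602216, + strand): caaatgctcgGTATGTtttttt

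SPO1 (chrXIV:609791-609874, + strand): ggaggccaaaGTAAGTtaaact

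NOG2 (chrXIV:721771-722302, - strand): ctgggttgcaGTATGTtaactt

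MPT5 (chrVII:167355-167994, + strand): ttctcttatgGTATGTattatc

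RPL22B (chrVI:64600-64920, - strand): ggctccaaacGTACGTtaattt

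The 5 genes with the lowest share all carried GTATGT, the common 5′SS, found in 178 of the 228 ranked genes in the split-read table.

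YPR170W-B (chrXVI:883388-883486, + strand): atggacctgcGTATGTtatatt

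YCL012C (chrIII:101634-101700, - strand): accaaagttgGTATGTatattt

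RPL36B (chrXVI:75986-76223, - strand): gtcaagactgGTATGTttacct

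UBC4 (chrII:407028-407122, - strand): atctagaaagGTATGTctaaag

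CPT1 (chrXIV:380690-380781, - strand): agctttacaaGTATGTtgctta

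A further 4 introns are shown because they are the most abundant or the furthest from the common pattern: SNR17A, which encodes the U3 snoRNA, RPL30 and RPS9B held the most split reads, and HAC1 is cut by the Ire1 nuclease and joined by tRNA ligase, not by the spliceosome.

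SNR17A (chrXV:780121-780277, + strand): acgtacttcaGTATGTaatata

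RPL30 (chrVII:439094-439323, + strand): cgcagagatgGTCAGTataaca

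RPS9B (chrII:604515-604927, + strand): acaatgccaaGTACGTattaga

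HAC1 (chrVI:75840-76091): cgtaatccagCCGTGAttacga

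At the 3′ end, the last 25 bases of the intron and the first 3 of exon 2 are given for the introns at the ends of the ranking, with the last 3 intron bases in capitals. The intron of RPL22B ends close behind its TACTAAC, which can be read in its line.

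RPL22B: gattactaacataaaactgtaaCAGact

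PCH2: aaacataaatatgcgatcaataTAGacc

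RPL36B: aagatattctatttttttcctcTAGgta

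UBC4: caaaatcaacatgctattgaacTAGaga

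HAC1: atggacggcttgcttgtactgtCCGaag

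Pre-mRNA share was ranked over the 238 nuclear genes with at least 100 pre-mRNA plus junction reads in each library, 152 non-RP and 86 RP genes, and 22 nuclear genes fell below that minimum. RP genes are those named RPL or RPS throughout, so that RPP1B, which encodes a protein of the ribosomal stalk, was counted as non-RP. Unspliced reads were found for nearly every gene: the median share over genes was 18.5% in replicate 1 and 18.7% in replicate 2, and the middle of the ranking lay between quartiles of 8.62% and 40.5% in replicate 1 and of 8.02% and 39.4% in replicate 2. Pooled over the 260 nuclear genes, pre-mRNA reads made up 17.9% and 18.5% of the pre-mRNA plus junction reads. In both libraries 47 genes lay above 50% and 20 below 5%. The range thus ran from near 0% to 100%, and the spread between genes was far wider than that between libraries.

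The non-RP genes had the higher shares, with medians of 22.3% and 21.9% in the 2 libraries, against 11.5% and 11.3% for the RP genes. The ratio of these medians was 1.93 in each library. RP genes were nevertheless found over most of the range: the quartiles of their mean share were 7.06% and 30.3%, against 11.8% and 49.8% for the non-RP genes, 9 RP genes lay above 50% in both libraries and 10 below 5%. Over genes with at least 1000 reads in each library the medians of the mean share were closer, 13.04% and 11.6%. Genes are not replicates, so no test was made of this difference.

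**Figure D1:**
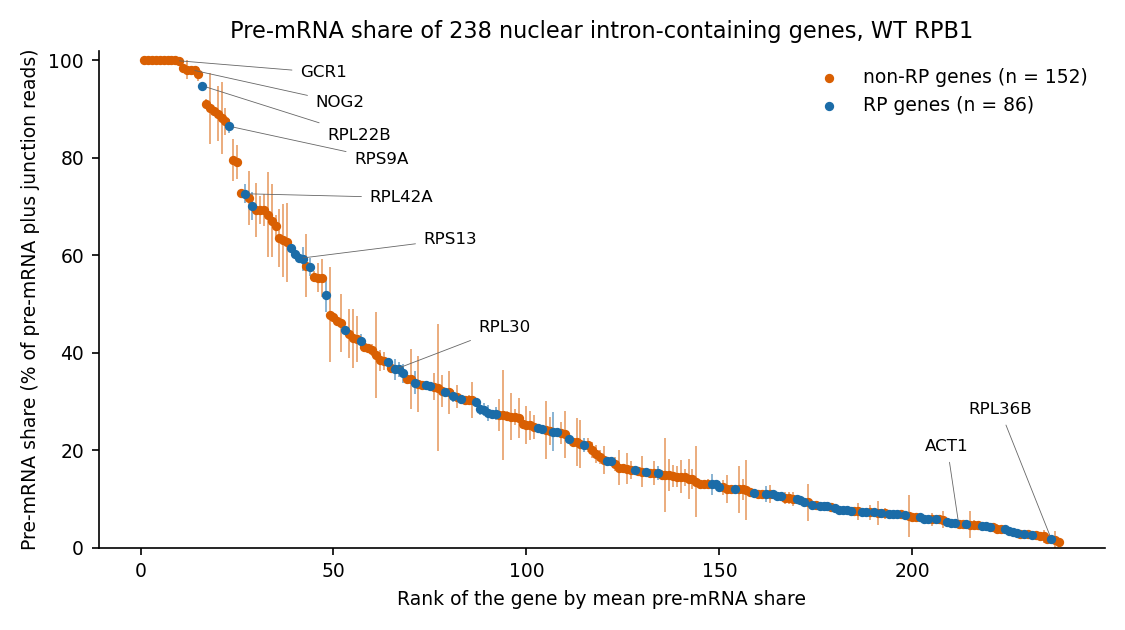
Pre-mRNA share (y axis, % of pre-mRNA plus junction reads) of each nuclear gene by its rank (x axis); points are means of the 2 WT libraries and vertical lines join the libraries. Non-RP genes (orange, n = 152) fill the upper end, with 9 genes at 100% in both libraries, and RP genes (blue, n = 86) run from 94.8% for RPL22B to 1.81% for RPL36B.

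At the top of the ranking 9 genes had no junction read in either library and so a share of 100%: YBR219C, YEL076C-A, BUD25, YHL050C, YJR079W, YJR112W-A, YLR464W, YML133C and GCR1. The introns of these 9 genes, as RefSeq places them, were also not among the annotated introns with split reads in either library. Whether they were retained, or are annotated at sites not used in these cells, was not tested. GCR1, a transcriptional activator of glycolytic genes, had the most reads among them, with 3625 and 3946 pre-mRNA reads. Its 5′ boundary class held 145 and 97 reads, its intron class 2491 and 2959 and its 3′ boundary class 989 and 890. BUD25 had 1032 and 971 pre-mRNA reads and YJR079W 2030 and 1733. YEL076C-A, YHL050C, YLR464W and YML133C are subtelomeric genes with near-identical copies elsewhere, so that their reads cannot be assigned with certainty. For 5 of the 10 highest genes (YBR219C, YEL076C-A, BUD25, YJR079W and YLR464W) another annotated gene overlaps the intron, against 12 of all 238 ranked genes, and the part of such overlaps in these counts was not tested.

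HAC1, whose mRNA encodes the transcription factor of the unfolded protein response and is cut only under stress of the endoplasmic reticulum, came next. It had 12373 and 10847 pre-mRNA reads and 20 and 0 junction reads, a share of 99.8% and 100%. The split-read table placed 21 and 26 unique reads on its annotated intron.

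The genes of meiosis followed. Of the 13 genes of this list in the table only 5 passed the read minimum, with a median share of 91.02% against 18.3% over all ranked genes. That minimum counts pre-mRNA and junction reads together, so a gene can pass it on pre-mRNA reads alone. The median therefore describes these 5 genes and not the list. PCH2, a checkpoint ATPase of meiotic prophase, had 655 and 705 pre-mRNA reads, nearly all at the 5′ boundary, and the junction class held 9 and 12 reads. Its share was 98.6% and 98.3%. SPO1, a phospholipase-like protein needed in meiosis, had shares of 96.3% and 100%, with 7 and 0 junction reads. REC107 (Mer2), needed to form meiotic double-strand breaks, had 97.5% in replicate 1 and 82.9% in replicate 2 and was one of the 24 genes that differed by more than 10 percentage points between the libraries. REC102 had 90.0% and 92.0%, and DMC1, the meiotic recombinase, 80.8% and 95.5%. The remaining 8 genes of the list had too few reads to be ranked.

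NOG2, a GTPase of the large ribosomal subunit's assembly, stood apart from its neighbours in the kind of reads it held. Its intron, which hosts the snoRNA snR191, had 26740 and 32598 reads. Its 5′ boundary had 83 and 59 and its 3′ boundary 115 and 141, beside 579 and 548 junction reads. The share was 97.9% and 98.4% with the intron reads and averaged 26.1% over the libraries with boundary reads alone, so that 1 read class carried its place in the ranking. Reads of the mature snoRNA and of the excised intron cannot be told apart from pre-mRNA in that class.

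In the other snoRNA hosts of the table the intron class held fewer reads than the junction class. Of the list of 8 such genes, 6 are in the table, NOG2 included, and had a median share of 14.7%, against 18.3% over all ranked genes, with a lowest value of 6.24% for EFB1 (translation elongation factor eEF1Bα). RPS22B had 31.5% and 36.3%, IMD4 (IMP dehydrogenase) 21.9% and 21.7%, ASC1 (the RACK1 homologue on the small ribosomal subunit) 7.94% and 7.21%, TEF4 (eEF1Bγ) 6.38% and 7.34%, and EFB1 6.14% and 6.33%. With reads divided by the length of each class the order turned, with medians of 8.50% for the list and 5.10% over all ranked genes. ASC1 held 399 and 480 intron reads and 33712 and 36569 junction reads, and EFB1 1683 and 1518 intron reads and 53145 and 47410 junction reads.

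Genes known to control their own splicing or RNA level mostly ranked above the middle by read counts. The 9 members of this list all passed the minimum, with a median share of 36.6%, against 18.3% over all ranked genes. With reads divided by the length of each class these medians were 4.83% and 5.10%, so the list was no longer above all ranked genes together. Most of its members are RP genes, however, and the median over RP genes on that scale was 1.104%. RPL22B had 94.97% and 94.65%, the highest of any RP gene, from 13154 and 12087 pre-mRNA reads and 697 and 683 junction reads. RPS9A had 85.1% and 87.9%. YRA1, an mRNA export factor with a long intron and an uncommon branch site, had 58.4% and 52.5%. RPS14B, whose pre-mRNA is bound by its own protein, had 56.9% and 61.8%. RPL30, where the L30 protein binds a fold around the 5′SS shown above, had 34.5% and 38.7%. DBP2, an RNA helicase with the longest intron of the nuclear genes (1002 nt), had 30.3% and 35.8%. RPL22A had 26.1% and 28.8%, RPS9B 25.3% and 23.7%, and RPS14A 6.56% and 6.77%. In each of the 3 paralog pairs of this list, then, one copy lay far above the other in both libraries.

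That pattern extended over the RP genes, most of which exist as a pair of paralogs named A and B. In 40 pairs both copies were ranked. The A copy had the higher share in both libraries in 17 pairs and the B copy in 22, and 1 pair changed its order between libraries. In 10 pairs the copies differed by more than 3-fold in mean share, and the median fold between copies was 2.10. RPS27A had 73.0% and 67.3%, against 7.86% and 6.66% for RPS27B. RPL42A had 70.8% and 74.6%, against 11.5% and 13.6% for RPL42B. RPL40A had 43.9% and 41.2%, against 6.82% and 7.38% for RPL40B, and RPL36A had 21.7% and 23.1%, against 1.59% and 2.03% for RPL36B. In the other direction RPL2A had 11.2% and 10.03%, against 55.7% and 59.4% for RPL2B. The copies of these pairs did not overlap. Exon 1 has the same coding length in both copies of 38 of the 40 pairs, which bears on the room that each read class has, described below. Intron length bears on that room too and can differ between copies. It is 147 nt in RPL2A and 400 nt in RPL2B, 463 and 238 nt in RPL36A and RPL36B, and 351 and 550 nt in RPS27A and RPS27B. The coding exons of paralogs are near-identical, and reads within them could have been split between copies by the counting.

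The list of RT-qPCR genes holds 6 genes, of which the paper's text names ACT1, RPL28 and RPL39 as measured in that way. RPS13 had 59.4% in each library, RPL28 45.5% and 44.02%, and ECM33 (a cell wall protein) 24.8% and 26.0%. RPL39 had 23.6% and 23.9985%, COF1 (cofilin) 11.1% and 11.7%, and ACT1 (actin) 4.32% and 5.49%. In this set of 6 the order was the same in both libraries. RPL28 was the gene with the most pre-mRNA reads of these, with 60281 and 57371.

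The other lists differed in their medians, which are given beside 18.3% over all ranked genes. RNA processing and export (9 ranked genes) had a median share of 47.9%, with NOG2 and HRB1 (an mRNA-binding shuttling protein, 75.7% and 82.6%) at its top and LSM7 (16.7% and 12.5%) and the tRNA acetyltransferase factor TAN1 (16.8% and 7.18%) at its lower end. Transcription and chromatin (7 genes) had 30.4%, between GCR1 and VPS75, a histone chaperone with 9.28% and 14.996%. TAF14, a shared subunit of several transcription complexes, had 72.3% and 66.5%. Nuclear genes of mitochondrial proteins (7 genes) had 25.2%, with COX5B, the hypoxic form of a cytochrome oxidase subunit, highest at 51.6% and 59.3%. Vesicle traffic (17 genes) had 14.6%, between the prenyltransferase subunit BET4 (74.6% and 59.7%) and the v-SNARE SNC1 (3.24% and 5.19%). Ubiquitin and proteasome genes (10 genes) had 13.5%: UBC12, which conjugates Rub1, had 72.8% and 72.9% and UBC4, a ubiquitin-conjugating enzyme, 1.36% and 2.40%. Cytoskeleton genes (13 genes) had 11.4%, the lowest median of these lists, with the tubulin-folding cofactor CIN2 at 68.2% and 63.7% and the fimbrin SAC6 at 2.61% and 2.55%. Each of these 6 lists held members above and below the overall median. With reads divided by the length of each class, beside 5.10% over all ranked genes, RNA processing and export (19.0%), transcription and chromatin (15.4%) and mitochondrial proteins (13.4%) were again above and vesicle traffic (4.74%) and the cytoskeleton (1.96%) again below, while ubiquitin and proteasome genes (5.88%) changed sides.

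The lowest 8 shares belonged to YPR170W-B, YCL012C, RPL36B, UBC4, CPT1 (cholinephosphotransferase), DTD1 (D-tyrosyl-tRNA deacylase), SAC6 and RPS11A. YPR170W-B had 99 and 118 pre-mRNA reads beside 9824 and 8662 junction reads, a share of 0.998% and 1.34%. YCL012C had 0 pre-mRNA reads in replicate 1 and 16 in replicate 2, beside 485 and 457 junction reads; a count of 0 allows a share of up to 0.619%. RPS11A had 1665 and 1278 pre-mRNA reads and 60786 and 47667 junction reads, a share of 2.67% and 2.61%.

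The libraries ranked the genes alike. The median absolute difference in share was 2.04 percentage points, 24 genes differed by more than 10 points, and Spearman's rho over the 238 genes, which share libraries and are not independent, was 0.96. Replicate 2 was higher in 132 genes and replicate 1 in 97, with a median difference of 0.25 points (replicate 2 minus replicate 1). The exact 95% binomial intervals of the 2 libraries did not overlap in 117 genes, so that the libraries differed by more than counting error, which is all these intervals cover. The largest gaps were in genes of few reads. UBC8, a ubiquitin-conjugating enzyme, had 45.9% and 19.8%, with 197 reads in WT replicate 2, SMD2, an Sm protein, 38.1% and 57.7% from 134 and 111, and NMD2, the Upf2 protein, 17.9% and 36.5% from 106 and 137.

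The pre-mRNA share from read counts also depends on how many reads each class can hold, because reads were assigned only within the annotated coding region. Dividing each deposited count by the deposited FPKM gives the relative class length that the authors used. The class of exon 1 held no read in any of the 213 nuclear genes with fewer than 130 coding bases in exon 1, and reads in 45 of the 47 genes with more. The intron class held reads in 1 of 138 genes with an intron under 160 nt and in 119 of 122 with a longer one. The junction class, too, held fewer reads behind a short exon 1: where exon 1 has under 20 coding bases, STAR's unique split reads were 3.20 and 3.26 times the reads of the junction class (median of 83 genes), and where it has at least 100 they were 1.03 and 1.03 times (34 genes). The median pre-mRNA share was 27.97% over the 92 ranked genes with under 20 coding bases in exon 1, 11.2% over the 100 genes with 20 to 99, and 27.4% over the 46 genes with at least 100.

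The ranking was therefore repeated with reads divided by class length, a choice made after these values were seen. The median share over the 238 genes was then 4.90% and 5.06%. The non-RP genes had medians of 10.4% and 9.58%, against 1.08% and 1.05% for the RP genes, a ratio of 9.61 and 9.10. The direction of the difference between the groups was that of the read counts, and its size was larger. With STAR's split reads as mRNA the ratio was 2.44 and 2.58, so that its size depends on the scale used. Medians still differed by exon 1 length per class length: 2.56% with under 20 coding bases, 4.38% with 20 to 99 and 15.9% with at least 100. RP genes have the shorter exon 1 (median 15.5 coding bases, against 34 for non-RP genes). Of the 25 highest genes 22 were shared by the rankings, and of the 25 lowest 8; all of the lowest 25 per class length were RP genes, against 11 from read counts. RPL42A moved from rank 27 to 128 (3.70% and 4.45% per class length) and RPS27A from 29 to 116 (6.02% and 4.65%). RPL22B stayed high, at 55.2% and 53.6% and rank 24, and RPS9A had 15.2% and 18.7%. RPL36B was lowest on this scale, at 0.13% and 0.16%. Of the 40 paralog pairs, 39 kept their order, and all 10 pairs that differed by more than 3-fold in read counts also did so per class length.

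**Figure D2:**
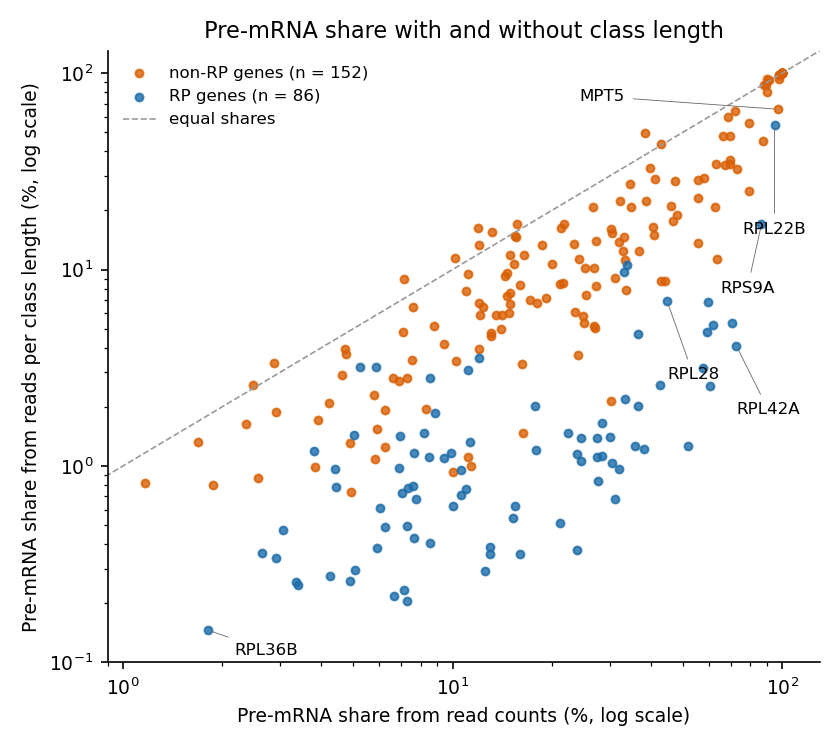
Mean pre-mRNA share per gene from read counts (x axis, %, log scale) against that from reads per class length (y axis, %, log scale), non-RP genes in orange (n = 152) and RP genes in blue (n = 86); the dashed line marks equal shares. RP genes lie mostly below the line, as RPL42A does, and the genes at 100% stay in the upper corner.

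Intron features were compared with the share as a description over the 228 ranked genes whose intron is in the split-read table. The 5′SS GTATGT was found in 178 of them, with a median share of 16.2%, and the other 50 had 20.5%. GTACGT (19 genes) had 13.6%, GTAAGT (9 genes) 12.02% and GTATGC (8 genes) 40.5%. Both genes with GTTCGT were high, REC107 as above and CQD1 at 30.8% and 48.4%. Per class length the median was 4.38% with GTATGT and 5.03% without, over RP and non-RP genes together, and GTATGC at 13.95% was above GTATGT on both scales. Within the non-RP genes it was 8.95% with GTATGT (115 genes) and 13.4% without (27 genes, HAC1 among them). Within the RP genes it was 1.11% (63 genes) and 1.03% (23 genes). By read counts these medians were 21.1% and 23.3% for non-RP genes and 10.6% and 17.8% for RP genes.

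The branch motif TACTAAC, searched on the coding strand of each intron with no mismatch allowed, was present in 194 of these introns and absent from 34. The genes without it had a median share of 35.8%, against 14.9% for those with it. Among non-RP genes the medians were 35.8% (30 genes, HAC1 among them) and 15.7% (112 genes), and per class length 16.1% and 7.68%. Only 4 RP genes lacked the motif, with 38.2% against 11.2% for the other 82 by read counts and 1.168% against 1.104% per class length. Over the split-read table the motif was in 215 of 261 introns (82.4%), 76.6% of the non-RP and 93.3% of the RP introns, and no other spelling was searched. The genes without TACTAAC included YRA1, RPS9A, RPS9B, HRB1, PCH2 and SPO1. They did not all have high shares. Among the 4 RP genes without it, RPS21A had 7.17% and 8.001%, below the median of 11.2% for RP genes with it. RPS9A, RPS9B and RPL19A lay above that median. Spearman's rho between share and intron length was 0.01 over all ranked genes and -0.44 per class length, where non-RP genes have the shorter introns (median 100.5 nt, against 406.5 nt for RP genes). Within the non-RP genes it was 0.24 from read counts and 0.02 per class length, and within the RP genes 0.09 and -0.07.

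Reads at the 2 ends of the intron were compared within each library. Over the 260 nuclear genes the 5′ boundary held 66978 and 59699 reads (13.3% and 12.6% of the pre-mRNA reads), and the 3′ boundary 251100 and 232866 (49.9% and 49.3%). Of 255 genes with enough boundary reads, some frameshift and mitochondrial genes included, 16 had more 5′ reads (6.27% of those tested) and 183 more 3′ reads (71.8%), by edgeR's quasi-likelihood test with the library as a block and Benjamini-Hochberg adjustment at 0.05. Without the frameshift and mitochondrial genes 248 were tested, and 12 had more 5′ reads (4.84%) and 177 more 3′ reads (71.4%). With TMM scaling over the 4 columns of the 255 genes, which takes the ratio of most genes as the zero point, these counts were 51 and 117. Over the 165 genes with reads in both classes of both libraries, the median log2 of 5′ over 3′ reads was -1.78 and -1.96. Among the 183 genes, 67 had no 5′ boundary read at all. Where exon 1 and intron together are shorter than 150 nt, the 5′ class held 71 and 66 reads over 81 genes and the 3′ class 12809 and 11929, so that a read pair had hardly any room at the 5′ end of these genes.

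The 8 genes at the bottom of the 5′ to 3′ ratio were mostly of that kind. TAF14, RPO26 (a subunit shared by all nuclear RNA polymerases), YSF3 (a splicing factor subunit), YJR112W-A, COX5B, VMA10 (a subunit of the vacuolar ATPase), YCL002C and KIN28 (the kinase of TFIIH) had 0 reads at the 5′ boundary in both libraries. Their 3′ boundary held from 367 reads (KIN28, replicate 2) to 739 reads (YSF3, replicate 1). In 7 of them exon 1 and intron together have fewer than 150 nt, the exception being VMA10 with 3 nt of coding exon 1 and a 162-nt intron.

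The genes at the top included REC114, YBR219C, YLL066C, PCH2, RIM1, GLC7 and RUB1. REC114, a meiotic recombination gene, had 70 and 49 reads at the 5′ boundary and 0 and 0 at the 3′ boundary, where only 45 coding bases of exon 2 follow. YBR219C had 1029 and 676 reads at the 5′ boundary, against 19 and 2 at the 3′ boundary. PCH2 had 628 and 703, against 27 and 2. RIM1, a mitochondrial single-strand DNA-binding protein, had 474 and 465, against 31 and 12 (log2 ratio 3.93 and 5.28, adjusted p = 0.0048). GLC7, the catalytic subunit of protein phosphatase 1, had 67 and 154, against 9 and 18. YLL066C, a subtelomeric gene, had 54 and 24, against 0 and 1. RUB1, a ubiquitin-like modifier, had 291 and 351, against 65 and 64. In each the 5′ class was the larger in both libraries.

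Among the RP genes 4 of 86 had more 5′ reads and 72 more 3′ reads, against 6.27% and 71.8% of all genes tested. RPL30 had 130 and 152 reads at the 5′ boundary, against 8892 and 7827 at the 3′ boundary. EFB1 had 42 and 43, against 1754 and 1644. RPL28 had 18242 and 16808, against 19671 and 19669, and did not pass the test (log2 ratio -0.17, adjusted p = 0.29). ASC1 had 1974 and 1992, against 536 and 368, and passed it (log2 ratio 2.16, adjusted p = 0.0042). By read counts all 17 vesicle traffic genes and all 7 transcription and chromatin genes had more 3′ reads, many of them with no read at the 5′ end. Only 9 and 2 of them had reads in both classes, and per class length 5 of these 9 and 1 of these 2 had more 3′ reads.

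With the class lengths as an offset, chosen after these values were seen, 183 genes with a read in both classes were tested. Of these 46 had more 5′ reads per class length (25.1%) and 53 more 3′ reads (29.0%), and the median log2 ratio was 0.07 and 0.01. The 97 non-RP genes, with the frameshift and mitochondrial genes among them, then had 13 with more 5′ reads and 30 with more 3′ reads, with a median log2 ratio of -0.999, and the 86 RP genes 33 and 23, with a median of 0.45. Directions turned for RPL19A, with log2 ratios of -2.74 in read counts and 2.75 per class length, for RPL6A, with -1.28 and 2.47, and for RPS6A, with -1.92 and 2.33.

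Several genes had the same direction on both scales. More 5′ reads were found for YBR219C, PCH2, RIM1, GLC7, RUB1 and ASC1, with log2 ratios of 2.27 (ASC1) to 5.94 (YBR219C) per class length. More 3′ reads were found for SEC14 (a phosphatidylinositol transfer protein, log2 ratio -6.04 per class length), MRK1 (a GSK-3 kinase, -4.85), APE2 (an aminopeptidase, -4.76), EFB1 (-4.17), CGI121 (-3.90), SRC1 (-3.31), VPS29 (-3.01) and RPL30 (-2.91). SEC14 had 1 and 1 reads at the 5′ boundary, against 387 and 566 at the 3′ boundary. APE2 had 116 and 137, against 3304 and 3141, MRK1 had 11 and 20, against 550 and 470, and both also had more reads in exon 2 than in exon 1, as described below.

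**Figure D3:**
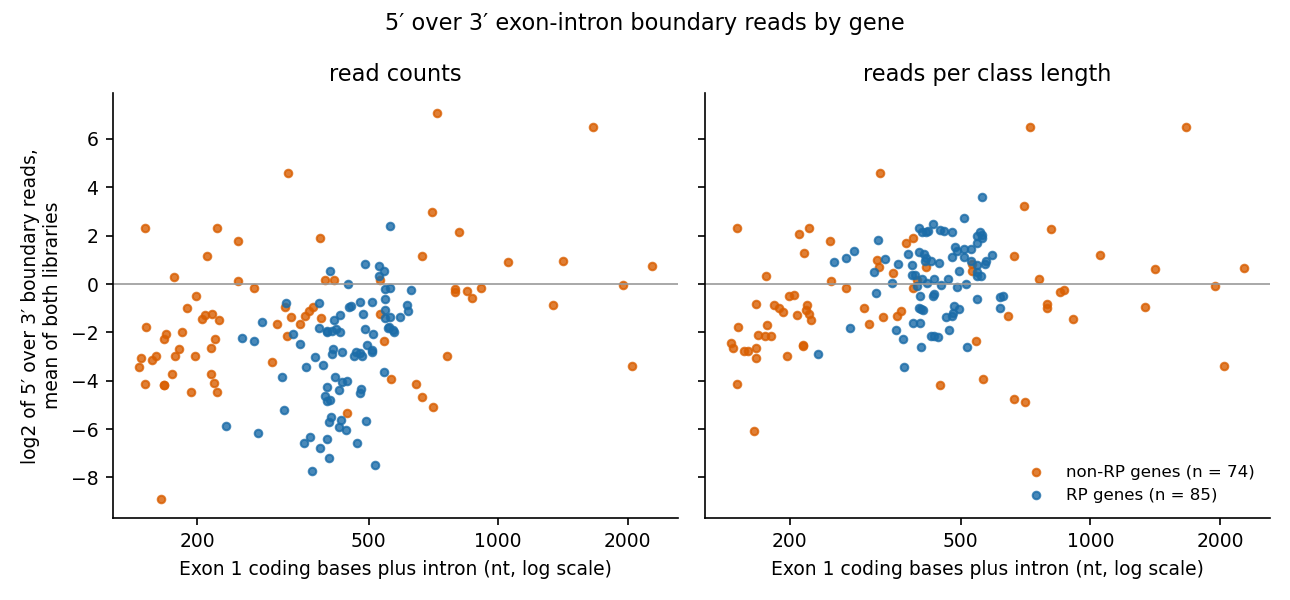
log2 of 5′ over 3′ boundary reads (y axis, mean of the 2 WT libraries) against the coding bases of exon 1 plus the intron (x axis, nt, log scale), from read counts (left) and from reads per class length (right); each point is a nuclear gene with reads in both classes of both libraries, non-RP in orange (n = 74) and RP in blue (n = 85). RP genes lie mostly below 0 on the left and on both sides of 0 on the right.

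Reads within the exons could be compared only where both are long. Of 79 genes with at least 150 coding bases in each exon, 33 had more exon 1 reads per coding base (41.8%) and 21 more exon 2 reads (26.6%) by the same test, with a median log2 of exon 1 over exon 2 of 0.29 and 0.44. Of the 79, 45 are frameshift genes, which hold no intron. The 31 nuclear genes had 10 with more exon 1 reads and 9 with more exon 2 reads, with a median fitted log2 ratio of 0.03.

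ASC1 had 111468 and 95232 reads in exon 1, against 48039 and 49267 in exon 2, which is 0.87 and 0.61 on the log2 scale per coding base (adjusted p = 4.3e-04). RPL17A and RPL17B, the only RP genes with both exons long enough, had log2 ratios of 0.49 and 0.51 and of 0.41 and 0.33. DBP2 had 1.01 and 0.82, RIM1 0.79 and 1.14 and CQD1, a mitochondrial protein of coenzyme Q distribution, 0.86 and 1.47, all 3 with more exon 1 reads. CQD1 did not keep this per class length (log2 ratio -0.27, adjusted p = 0.32), where its exon 2 of 181 coding bases has little room. YBL111C and YLL066C, the other 2 genes with the highest ratios, are subtelomeric genes with near-identical copies.

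At the other end YBR090C had 0 and 1 reads in exon 1, against 1275 and 1034 in exon 2. YJL225C had 1 and 1, against 1232 and 1018, and YML133C 4 and 5, against 316 and 423; both are subtelomeric. REC102 had 37 and 12, against 711 and 844. MRK1 had 136 and 242 reads in exon 1, against 3468 and 3125 in exon 2 (log2 ratio -3.26 and -2.28, adjusted p = 3.9e-04). APE2 had 507 and 551, against 21237 and 20941 (log2 ratio -2.19 and -2.05), and its ratio per class length was -0.41. TEF4 had 8747 and 7211, against 108667 and 99511, a log2 ratio of -1.30 and -1.45, and turned to 0.25 per class length (adjusted p = 0.017). NOG2 (0.11 and 0.22) and GLC7 (0.20 and -0.15) did not pass the test.

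**Figure D4:**
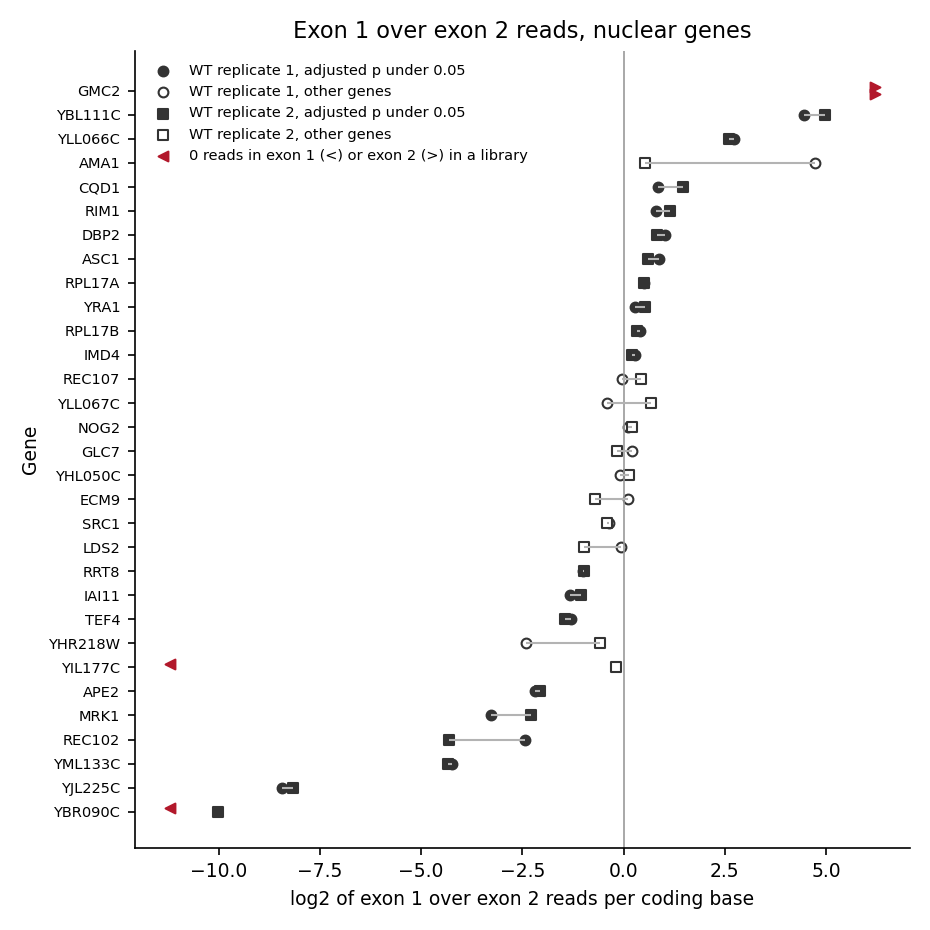
log2 of exon 1 over exon 2 reads per coding base (x axis) for the 31 nuclear genes tested (y axis), circles for WT replicate 1 and squares for WT replicate 2, filled where edgeR's adjusted p was under 0.05; triangles at the edge mark a library with 0 reads in an exon. Most genes lie within 2 log2 units of 0, with YBR090C, YJL225C and YML133C far to the left and YBL111C to the right.

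STAR's split reads were counted over the whole genome, not only within coding regions. In all, 261 annotated nuclear introns with GT-AG or GC-AG ends were listed, 171 in non-RP genes and 90 in RP genes, with 5559899 unique reads in replicate 1 and 4904535 in replicate 2. The median over introns was 2869 and 2694 unique reads. The non-RP introns had medians of 1096 and 1030, against 49007 and 45119 for the RP introns, which held 85.9% and 85.3% of all unique split reads. The 10 highest introns held 20.2% and 19.95%. Reads mapped to more than 1 place were 0.38% and 0.30% of the total.

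RPL30 had 143382 and 109379 unique split reads and SNR17A 133732 and 124861, and their order differed between the libraries. RPS9B had 123891 and 109648, RPL31A 120676 and 104231, RPL28 102827 and 102989, EFB1 103638 and 91633, RPL33A 105124 and 82537, RPL26B 96897 and 90448, RPS17A 102378 and 77269, and RPS27B 91635 and 79213. The other U3 gene, SNR17B, had 23921 and 20316. Of the 10 highest introns only those of SNR17A and EFB1 were not in an RP gene. RPL30 thus combined a rare 5′SS (GTCAGT, 1 of 261 introns) with one of the highest numbers of spliced reads, and RPL28 combined high numbers of both spliced and unspliced reads.

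Among the listed introns the lowest end held genes of meiosis and sporulation, subtelomeric genes and the uncharacterised YKR005C. A further 21 nuclear coding introns of RefSeq, those of GCR1 and BUD25 among them, were not listed in either library and lie outside this ranking. PCH2 had 9 and 12 unique reads, SAE3 9 and 9, YKR005C 14 and 1, MEI4 8 and 0, AMA1 0 and 8, SPO1 7 and 0 and OSW2 0 and 6. YRF1-3, YLL067C and YLL066C had 0 in both libraries, where a count of 0 allows up to 3 reads. MEI4 also had 36 and 6 reads that mapped to more than 1 place, more than its unique ones. Under 100 unique reads were found for 19 introns in replicate 1 and 20 in replicate 2, none of them in an RP gene.

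The 2 libraries ordered the introns nearly alike, with Spearman's rho of 0.997 over 261 introns. Of the 240 introns with at least 100 unique reads in each library, none differed by more than 2-fold after scaling to the total, and the median absolute log2 difference was 0.11. Introns of at least 200 nt (112, of which 89 in RP genes) had medians of 42341 and 38656.5 unique reads, against 949 and 849 for the 149 shorter ones. Within the non-RP introns the long ones (23) had 2472 and 2427, against 941 and 846.5 for the short ones (148).

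**Figure D5:**
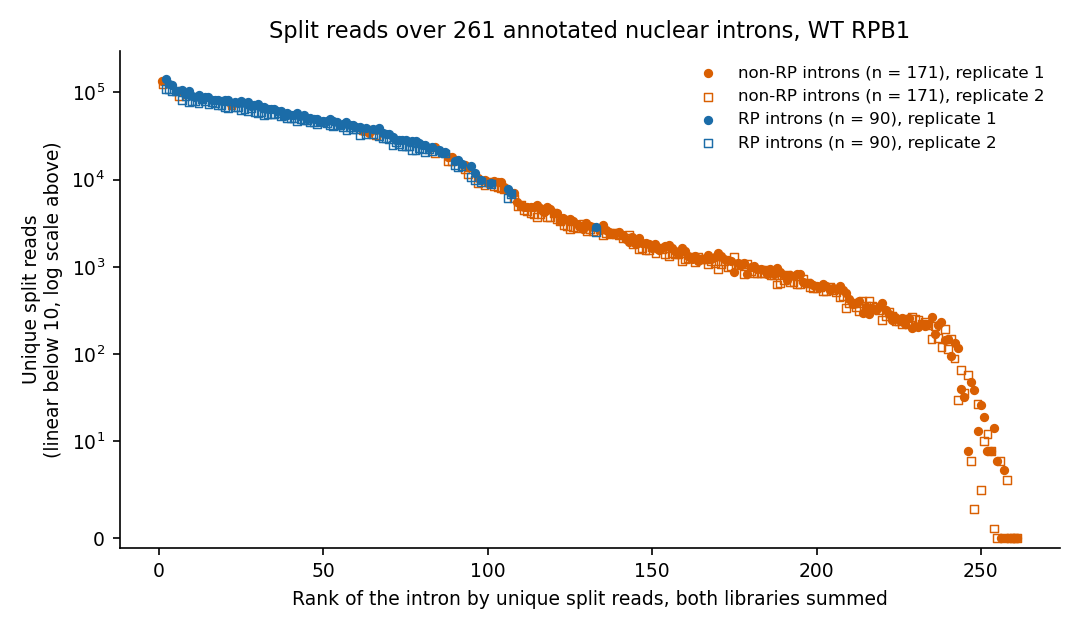
Unique split reads (y axis, linear below 10 and log scale above) of the 261 annotated nuclear introns by rank (x axis), non-RP introns in orange (n = 171) and RP introns in blue (n = 90), circles for WT replicate 1 and squares for WT replicate 2. RP introns fill the upper ranks, and the lowest introns have 0 reads in 1 or both libraries.

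In 9 genes with 2 listed introns the reads of the first and the second intron were set side by side. HMRA1 is the silent copy of the mating-type gene a1, and in these MATa cells its reads cannot be told apart from those of a1 expressed from the mating-type locus. It had the widest gap, with 1829 and 1920 reads on the first intron, against 1032 and 844 on the second (log2 ratio 0.83 and 1.19). VMA9, a subunit of the vacuolar ATPase, had 7030 and 6075, against 9734 and 8355 (-0.47 and -0.46). RPL7B had 7068 and 6840, against 9132 and 8961, and RPL7A had 61400 and 53836, against 75274 and 67490, and in both genes the second intron hosts a snoRNA. SUS1, an mRNA export and SAGA subunit with a first 5′SS of GTATGA, had 1324 and 1074, against 1524 and 1398. DYN2, a dynein light chain, had 2984 and 2285, against 3152 and 2583. The first intron held more in EFM5 (2902 and 2694, against 2318 and 2113), in TAD3 (806 and 662, against 636 and 521) and in YOS1 (3625 and 3017, against 3310 and 2847). The first intron thus had fewer reads in 5 genes and more in 4, in both libraries, and apart from HMRA1 the mean log2 ratio lay between -0.46 (VMA9) and 0.34 (TAD3).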

How the data were processed

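Reads were aligned by the authors with STAR (version not given in the sources used here) to the R64 (sacCer3) genome, and read counts per class and gene were made by the authors with dice-count of DICEseq from the Ensembl annotation. The deposited tables give the whole-number counts and, beside them, the FPKM values of each class. The FPKM values of the authors were used only to recover the relative length of each class, as count over FPKM. The deposited STAR tables give unique and multiply mapped split reads per intron. Gene names missing from the tables (81 of 312) and all sequences were taken from RefSeq's annotation of the same build, in which 308 genes have the gene length of the tables.

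Genes were ranked with at least 100 pre-mRNA plus junction reads in each library. Boundary classes (at least 20 reads) and exons (at least 150 coding bases each and at least 20 reads) were compared by edgeR 4.0.16 (quasi-likelihood test, 2 columns per library, library as block, Benjamini-Hochberg over all genes tested, threshold 0.05, R 4.3.3), with DESeq2 1.42.0 as an alternative, and tested on simulated data first. Intervals of shares are exact Clopper-Pearson intervals at 95% and cover counting error only, since reads carry no molecular identifiers. The p-values measure the spread between 2 cultures.

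Genes named are the 10 highest and 8 lowest shares, the 8 largest and 8 smallest 5′ to 3′ ratios and the 5 largest and 5 smallest exon ratios past the threshold and on the same side in both libraries (0 reads in a class counted as a side), the 10 introns with most and the 10 with fewest split reads, the 3 genes whose shares differ most between libraries, all snoRNA hosts, autoregulated, RT-qPCR and two-intron genes, and examples of the other lists. A gene that this rule names is not reported here. The paralog pairs, the genes followed per class length, and others outside this rule were chosen after their values were seen. The members and lists were chosen with earlier results of these data known. Python 3.11.15 with pandas 2.3.3 and scipy 1.17.1 was used for the summaries.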

Additional observations from a re-analysis of the deposited data

Results flagged for a closer look

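Split reads outside the nuclear introns described above were well above what a count of 0 allows. The 14 annotated mitochondrial junctions held 60412 unique split reads in WT replicate 1 and 62376 in WT replicate 2. The 16 annotated tRNA introns in the tables, which are cut by the tRNA splicing endonuclease, held 223 and 355. The intron of YNCD0003W alone held 146 and 255 of these, and only 9 and 11 of the 16 introns had a unique read.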

How the results depend on the processing

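Leaving out a library gave median shares of 18.5% to 18.7% over all genes, 21.9% to 22.3% over non-RP genes and 11.3% to 11.5% over RP genes, a median log2 of 5′ over 3′ reads of -1.96 to -1.78, a median log2 of exon 1 over exon 2 reads of 0.29 to 0.44 (0.25 from both libraries) and 85.3% to 85.9% of split reads in RP introns. The median share over all, non-RP and RP genes was 15.5%, 22.5% and 6.74% with boundary reads alone, 8.43%, 12.8% and 3.49% with the mean of the boundary classes, 24.3%, 29.4% and 12.9% with reads over the whole intron added, 5.10%, 10.7% and 1.104% per class length, 5.26%, 10.4% and 1.00002% with boundary reads per class length, and 8.71%, 13.5% and 5.601% with STAR's split reads as mRNA. With no read minimum it was 21.7% over all and 25.4% over non-RP genes, with at least 1000 reads 12.1% and 13.04%, and with every tabulated gene 17.8% and 22.6%. The non-RP median was the higher one under each of these. The per-class-length, split-read, both-class and no-frameshift alternatives were chosen after seeing the data. Genes with more 5′ and with more 3′ reads numbered 51 and 117 with TMM scaling, 46 and 53 per class length, and 14 and 114 over genes with both classes, and the median log2 ratio per class length was 0.053. Without the replicate block 23 genes had more 5′ reads, the count of genes with more 3′ reads moved by less than 1.5 times, genes with more exon 1 and exon 2 reads numbered 35 and 21, and no named gene changed its call. Genes with more exon 2 reads numbered 72 with at least 50 coding bases, 46 of them with no exon 1 read. Without frameshift genes 10 had more exon 1 and 9 more exon 2 reads. The median exon log2 ratio was 0.52 with at least 300 coding bases, 0.61 per class length and 0.079 without frameshift genes. The median split reads over all annotated nuclear junctions was 1511.5. Log2 ratios of 5′ over 3′ reads turned for RPL19A (2.75), RPL6A (2.47) and RPS6A (2.33) per class length, and for RPL6A (0.68) and RPS6A (0.040) with TMM scaling. Exon log2 ratios turned per class length for CQD1 (-0.27) and for TEF4 (given above), which follows from the offset itself. Shares of genes with few reads, such as UBC8, SMD2 and NMD2, are limited by depth.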

Other observations

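The 3 mitochondrial genes of the read-class tables, whose introns are not removed by the spliceosome, had more 5′ than 3′ boundary reads or unequal exon reads. AI2, a maturase in the first introns of COX1, had 772 reads at the 5′ boundary in WT replicate 1, against 143 at the 3′ boundary, and AI5_BETA had 288 and 293 in the 2 libraries, against 57 and 37. BI2, a maturase of COB, had 5558 and 5311 reads in exon 1, against 562 and 685 in exon 2, and AI2 had 598 and 640, against 54725 and 60704.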
